A study of Homo sapiens with 18 samples.

Results

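HIF1A knockdown was compared with a control vector in LNCaP, a human prostate cancer line. The shHIF1A group was infected with a lentivirus carrying an shRNA against HIF1A, and the control group with pGIPZ, which the labels call a control shRNA. Infection lasted 5 days, each group held 3 libraries, and both groups were given 100 µM CoCl2 for the 24 h before harvest. CoCl2 is a chemical that keeps HIF1A protein from being degraded, so the control cells were in a state that mimics hypoxia, and no culture without CoCl2 enters the comparison. The comparison covers the 12900 of 26443 genes in the deposited table that reached 1 RPKM (reads scaled by transcript length and library depth) in at least 3 of the study's 18 libraries. Values come from RNA sequencing of total RNA. Other groups of 3 libraries are used where named: cells infected with the FOXA1 and HIF1A shRNAs together, cells infected with the FOXA1 shRNA, and pGIPZ cells given 40 µM KC7F2, an inhibitor of HIF1A, for 24 h, all with the same infection time and CoCl2. The labels name neither the vector that carried the HIF1A shRNA nor the number of shRNA sequences, and they call the samples triplicates without saying that they were separate cultures, so every p-value here reflects the spread among these samples, which may be technical.

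HIF1A is the oxygen-regulated subunit of the transcription factor HIF-1. It pairs with ARNT on DNA that often holds the letters ACGTG and raises genes of glucose uptake, glycolysis, lactate production, blood vessel growth and pH control. In normal oxygen, prolyl hydroxylases such as EGLN1 and EGLN3 mark HIF1A for destruction through VHL. FOXA1 is a factor that opens chromatin for the androgen receptor in prostate cells.

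Changes are log2 fold changes ± SE, shHIF1A over control, on the log2(RPKM + 0.5) scale, where changes of weakly expressed genes come out too small. The words rose and fell are kept for genes whose adjusted p (limma, Benjamini-Hochberg over 12900 genes) was below 0.05. By that rule 3347 genes rose (25.9%) and 2075 fell (16.1%), 42.0% in all, so a list with about that share called does not stand out. The median change of all genes tested was 0.071. Of the genes called, 61.7% had risen, and this share was 52.1% after median-ratio scaling, which set the median of all genes to 0, 53% after quantile normalisation and 58.8% after removal of trends on gene length and GC content. At least 2-fold changes were found for 675 risen genes (5.23%) and 480 fallen genes (3.72%), and the values of the 2 groups did not overlap for 6143 genes (47.6%).

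The 6 libraries held 8770000 to 11900000 reads with shHIF1A and 10200000 to 11500000 in control, as recovered from the spacing of the lowest values, and the libraries of the other groups held 3210000 to 12000000. Control library 1 stood apart: its values of short genes exceeded those of long genes by 0.54 (log2, relative to the mean of all 18 libraries), against -0.17 to 0.15 in the shHIF1A libraries and 0.058 and -0.16 in the other two controls. Results that rest on it are given with and without it. The line's markers were present, with KLK3 and TMPRSS2 in every library and KRT5 and TP63 listed at 0 in these 6. Of 12 markers listed as present in LNCaP, 9 fell with shHIF1A, as described below. Summed levels of 9 fibroblast markers were 7.98 to 9.33 RPKM with shHIF1A and 2.62 to 3.53 RPKM in control, those of 6 endothelial markers 2.11 to 2.72 and 0.624 to 0.944 RPKM, and those of 10 immune markers 4.22 to 6.25 and 6.85 to 8.72 RPKM. Of these 25 genes, 4 were tested: COL1A1, COL3A1 and VWF rose and CD68 fell (not without control library 1 or shHIF1A library 3, adjusted p = 0.0850 and 0.103), while the T and B cell markers CD3D, CD3E and MS4A1 and the endothelial receptors KDR and TEK were listed at 0 in all 6 libraries.

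The targeted transcript was lowered. HIF1A (chromosome 14, 61695513 to 61748259, plus strand, hg38, GENCODE 29) stood at 3.06, 4.28 and 3.33 RPKM in shHIF1A libraries, against 14, 27.3 and 28 RPKM in control libraries. These ranges lay apart, and the lowest control value was that of library 1. The change was -2.49 ± 0.23 (adjusted p = 4.97e-07), which left 17.9% on that scale, and it was -2.81 to -2.32 with any single library left out. FOXA1 stood at 123, 118 and 119 RPKM in shHIF1A libraries, against 71.6, 114 and 107 RPKM in control libraries. The groups did not overlap, and the difference was 0.33 ± 0.16. It passed without control library 2 (adjusted p = 0.0461). With all libraries (adjusted p = 0.113) and without control library 1, which held the lowest control value, it did not pass the test. The partner subunit ARNT did not pass either, at 0.088 ± 0.16. EPAS1, which encodes the related subunit HIF2A, had 1.94, 2.36 and 2.05 RPKM with shHIF1A, against 0.750, 1.04 and 0.957 RPKM in control. Every shHIF1A value lay above every control value, and EPAS1 rose by 0.89 ± 0.19 (adjusted p = 0.00148). ARNT2, another partner subunit, rose by 0.53 ± 0.13. HIF1AN, the hydroxylase that blocks the activation domain of HIF1A, rose by 0.86 ± 0.096, and CITED2, which competes with HIF1A for the coactivators CREBBP and EP300, rose by 1.26 ± 0.10. EGLN3 rose by 0.75 ± 0.14. In the list of 13 tested subunits and regulators, 6 rose and 2 fell (1 without control library 2 or shHIF1A library 1), and the median was 0.35, or 0.042 without control library 1 and 0.13 after removal of length and GC trends.

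**Figure D1:**
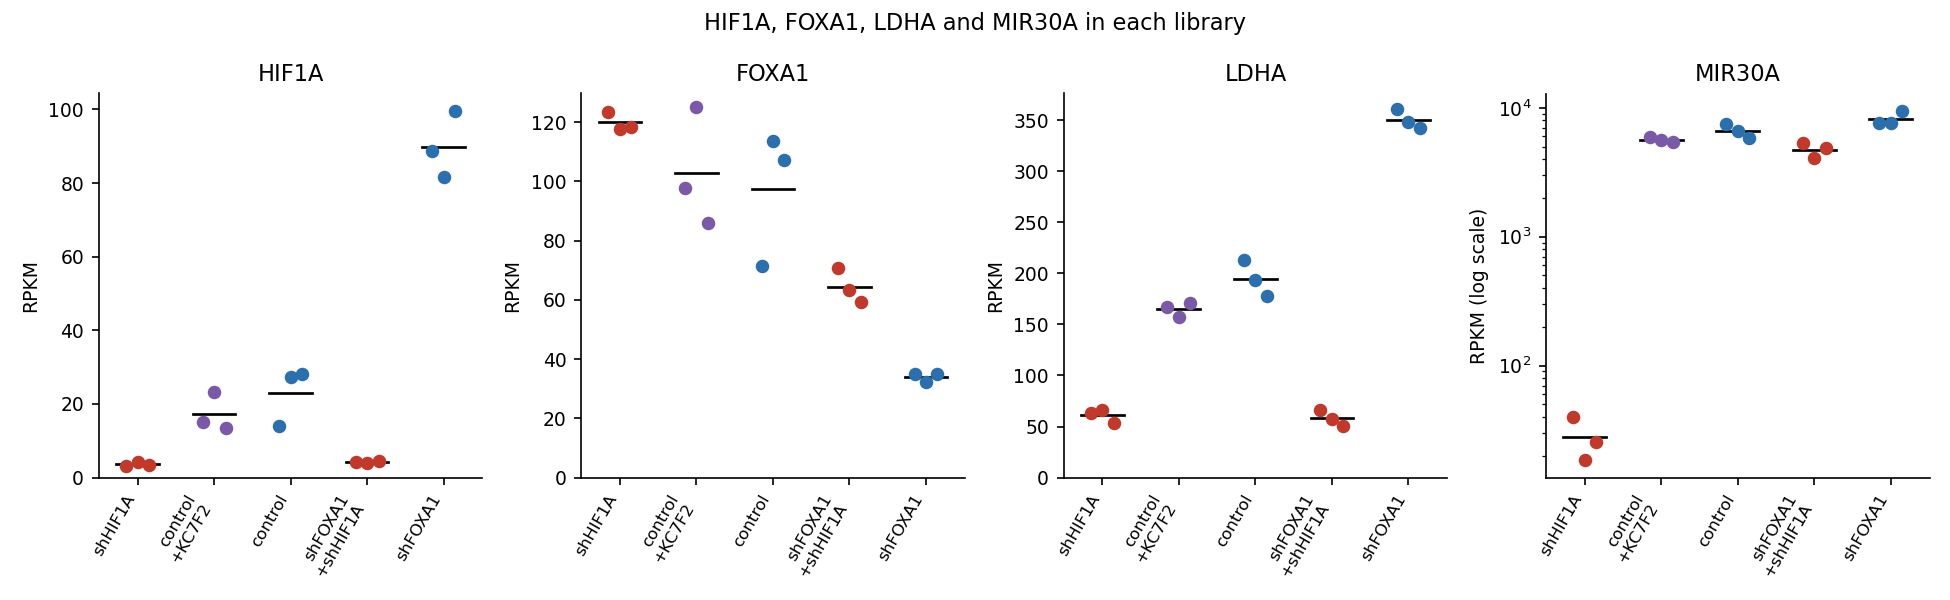
RPKM of HIF1A, FOXA1, LDHA and MIR30A in each of 15 libraries (points, 3 per group) with group means (bars); red marks groups with the HIF1A shRNA, purple KC7F2, blue the groups with neither, and the MIR30A axis is logarithmic. HIF1A and LDHA were lower in both groups with the HIF1A shRNA than in the group each is set against, and MIR30A was low in the shHIF1A group alone among these 5 groups.

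The largest difference in the comparison lay in a microRNA gene. MIR30A (chromosome 6, 71403551 to 71403621, minus strand, hg38) stood at 39.8, 18.5 and 25.3 RPKM in shHIF1A libraries, against 7463, 6602 and 5859 RPKM in control libraries. Control values were far above those with shHIF1A, and the change was -7.93 ± 0.22 (adjusted p = 1.25e-12). miR-30a is a member of a widely expressed microRNA family, and vectors of the pGIPZ kind carry their shRNA in a backbone made from its stem. The part of the vector in this signal was not tested. The hairpin and its mature products are shown because no other gene of the table changed as much. Capitals mark the mature parts in the hairpin and the seed, bases 2 to 8, in the mature forms (RefSeq, GRCh38.p14):
MIR30A hairpin: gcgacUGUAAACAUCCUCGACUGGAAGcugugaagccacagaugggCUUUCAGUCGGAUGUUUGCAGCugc
hsa-miR-30a-5p: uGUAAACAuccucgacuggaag
hsa-miR-30a-3p: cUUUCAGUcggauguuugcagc

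High values were also found in the other groups used here, with 5300.5, 4051 and 4836 RPKM in cells with both shRNAs, 7572, 7652 and 9451 RPKM in cells with the FOXA1 shRNA and 5928, 5593 and 5428 RPKM in control cells with KC7F2. The gene lies inside LINC00472, on the same strand, and that host transcript showed no such fall: LINC00472 stood at 0.712, 0.659 and 0.835 RPKM in shHIF1A libraries, against 0.138, 0.162 and 0.304 RPKM in control libraries, too low to be tested. Relatives were near 0 in both groups: MIR30B, MIR30C2 and MIR30D were listed at 0 in all 6 libraries. MIR30E had 0, 0 and 0 RPKM with shHIF1A and 0, 1.88 and 1.05 RPKM in control. That difference was not called with all libraries (adjusted p = 0.0550). It passed without control library 1 (adjusted p = 0.00437), which had MIR30E at 0, but in so short a gene these values stand for few reads. A difference in vector and a difference in HIF1A cannot be told apart in any result of this comparison. Among 552 small RNA genes tested, 11 rose and 37 fell. Besides MIR30A, the small nucleolar RNAs SNORD81 and SNORD80, which guide methylation of ribosomal RNA and are made from introns of GAS5, fell by 2.04 and 1.2. GAS5 itself fell by 0.99 ± 0.21.

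The largest rises were in secreted proteases, defence proteins and epithelial genes. MMP1 (interstitial collagenase) had 8.0, 6.56 and 7.33 RPKM with shHIF1A, against 0, 0 and 0 RPKM in control. It was listed at 0 in all 3 control libraries, so no fold is given. MMP10 (stromelysin-2) had 11.9, 11.9 and 11.3 RPKM with shHIF1A, against 0.801, 0.393 and 0.716 RPKM in control. Its groups lay far apart, and it rose by 3.44 ± 0.23 (adjusted p = 1.37e-08). PI3 (elafin, an elastase inhibitor of epithelia) had 28.9, 25.8 and 30.9 RPKM with shHIF1A, against 2.86, 2.34 and 2.45 RPKM in control. No library overlapped, and PI3 rose by 3.25 ± 0.21 (adjusted p = 1.13e-08). C10orf10 rose by 3.13, the membrane protein gene SUSD2 by 2.98, MMP13 (collagenase-3) by 2.81, the keratin KRT80 by 2.81, BCAS1 by 2.79, the bile acid receptor GPBAR1 by 2.78, the natural killer cell ligand RAET1L by 2.76 and the trefoil peptide TFF1 by 2.71. GSN (gelsolin, an actin-severing protein) had 55.9, 51.8 and 42.8 RPKM with shHIF1A, against 7.50, 7.58 and 6.12 RPKM in control. It rose by 2.74 ± 0.12 (adjusted p = 1.28e-10). FAR2P2, a pseudogene whose reads may belong to related copies, rose by 2.69, the stathmin family gene STMN4 by 2.5 and the transcription factor HES2 by 2.48.

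The largest falls were of another kind. MESP1, a transcription factor of early mesoderm, had 9.15, 5.12 and 6.10 RPKM with shHIF1A, against 90.7, 61.8 and 31.7 RPKM in control. The control values spread widely but stayed above those with shHIF1A, and MESP1 fell by 3.0 ± 0.37. ANGPT2, which encodes the vessel-destabilising ligand angiopoietin-2 and is a hypoxia target, had 0.347, 0.382 and 0.448 RPKM with shHIF1A, against 5.03, 6.52 and 6.48 RPKM in control. The groups were far apart, and ANGPT2 fell by 2.86 ± 0.12 (adjusted p = 1.28e-10). STMN1, which destabilises microtubules, fell by 2.47 ± 0.19. ACPP, the prostatic acid phosphatase, had 4.70, 4.42 and 5.18 RPKM with shHIF1A, against 29, 27.8 and 29.3 RPKM in control. It fell by 2.47 ± 0.10, with no overlap. GNB4 fell by 2.43, DDAH1, which breaks down a natural inhibitor of nitric oxide synthesis, by 2.37, the splicing gene LSM4 by 2.35, the nuclear lamina gene LMNB1 by 2.30, the ribonucleotide reductase subunit RRM2 by 2.27, NEK7 by 2.24, the thyroid hormone deiodinase DIO3 by 2.21 and the cancer-testis antigen MAGEA4 by 2.17. RASSF3 had 17.6, 19.6 and 20.5 RPKM with shHIF1A, against 88.6, 90.9 and 97.7 RPKM in control. It fell by 2.24 ± 0.083 and had the smallest adjusted p among the named protein-coding genes (5.35e-11).

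Ranked by level instead of ratio, the rises were led by CDKN1A, QSOX1, PGK1, SYNGR2 and BSG, besides GDF15, ACTB and RHOC, whose calls were lost with only the groups compared in the fit (adjusted p = 0.0884, 0.205 and 0.0540). QSOX1, a sulfhydryl oxidase of the secretory path, had 475, 441 and 421 RPKM with shHIF1A, against 236, 219 and 176 RPKM in control. All shHIF1A values were the higher ones, and it rose by 1.09 ± 0.10. SYNGR2 rose by 0.93 ± 0.11 and BSG, the chaperone of lactate transporters, rose by 0.66 ± 0.10. Apart from MIR30A, the 8 largest falls in level were ribosomal protein genes, described below.

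**Figure D2:**
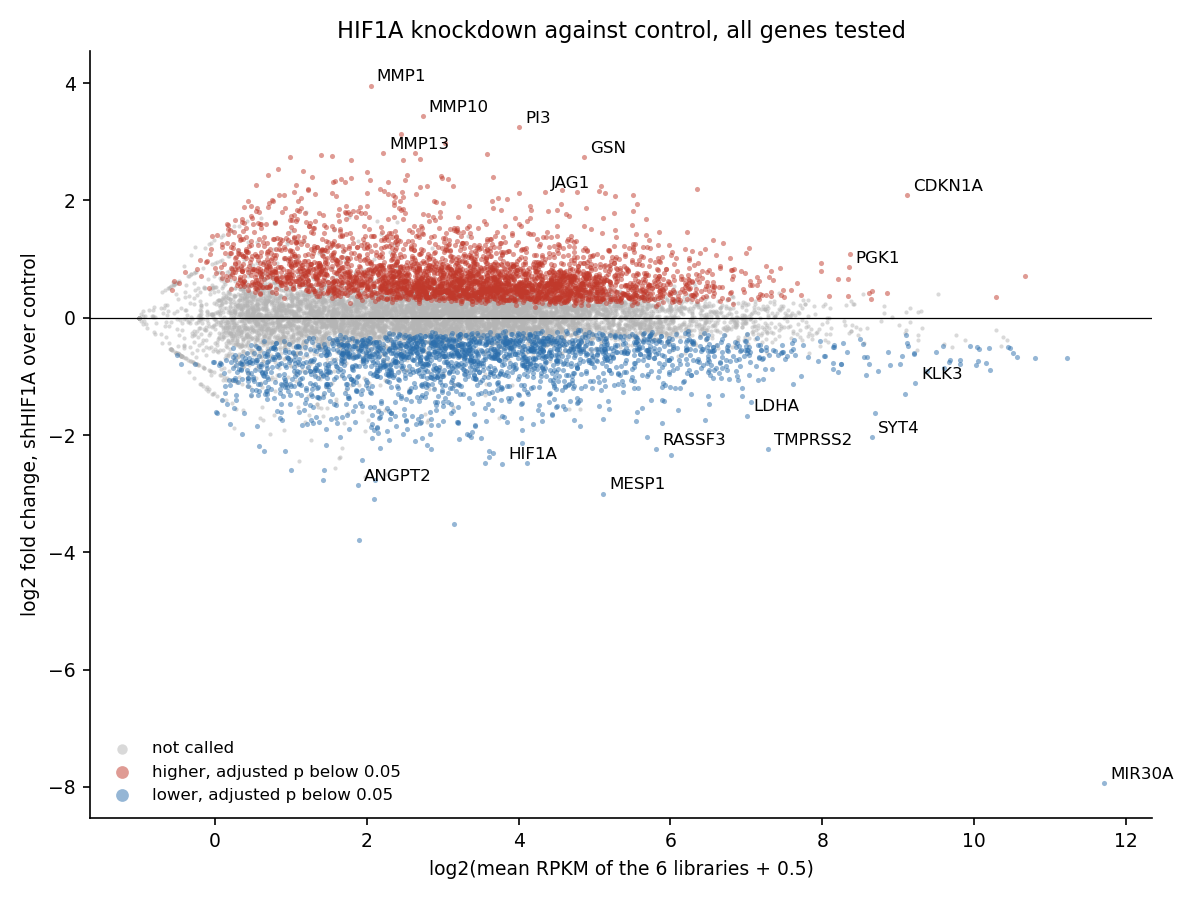
Log2 fold change (shHIF1A over control) against the log2 of the mean RPKM plus 0.5 for the 12900 genes tested; red genes rose, blue genes fell and grey genes were not called. MIR30A lies at -7.93, far below every other gene, MMP1, MMP10 and PI3 lie at the top, and CDKN1A is the highest of the most abundant genes; the height of MMP1 depends on the added 0.5 because its control values were 0.

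Of 18 tested genes of glucose uptake and glycolysis, 9 fell and 3 rose, and the median was -0.35. LDHA, the lactate dehydrogenase subunit that turns pyruvate into lactate, had 63.7, 66.4 and 53.1 RPKM with shHIF1A, against 213, 193 and 178 RPKM in control. Every shHIF1A value lay far below the lowest control value, and LDHA fell by 1.67 ± 0.11 (adjusted p = 1.13e-08), the largest change of the list. Its sister subunit LDHB had 35.2, 39.4 and 35.3 RPKM with shHIF1A, against 109.7, 75.8 and 60.5 RPKM in control. LDHB fell by 1.11 ± 0.20, without overlap. GAPDH fell by 0.85, GPI by 0.78, ALDOA by 0.78, ENO1 by 0.66 and the phosphofructokinase PFKP by 0.63. PGK1 (phosphoglycerate kinase) went against these steps. It had 511, 387 and 366 RPKM with shHIF1A, against 266, 227 and 195 RPKM in control. The lowest shHIF1A value lay above the highest control value, and PGK1 rose by 0.87 ± 0.14 (adjusted p = 8.98e-05). ALDOC rose by 0.42 ± 0.12 and the muscle phosphofructokinase PFKM rose by 0.44 ± 0.089. The glucose transporter SLC2A1 had 19.3, 18.5 and 16 RPKM with shHIF1A, against 17.8, 23.4 and 19.8 RPKM in control. These values overlapped and the difference of -0.17 ± 0.12 did not pass, but after removal of length and GC trends it was -0.33 and passed (adjusted p = 0.00944). Hexokinase HK2 stood at -0.32 ± 0.13 and passed without control library 3 (adjusted p = 0.0388) or without shHIF1A library 2 (adjusted p = 0.0104). With all libraries it passed with the replicate block (adjusted p = 0.0340), median-ratio scaling (0.0176), quantile normalisation (0.0120) and trend removal (0.00296). GAPDH, PGK1, LDHA and ENO1 have processed copies elsewhere in the genome, and how the authors assigned shared reads is not given in the sources used here.

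Downstream of pyruvate, PDK1, the kinase that keeps pyruvate out of mitochondria, had 4.08, 3.95 and 4.0 RPKM with shHIF1A, against 11.3, 12.1 and 11.8 RPKM in control. All 3 shHIF1A values were far below control, and PDK1 fell by 1.44 ± 0.095 (adjusted p = 1.34e-08). PDK2, a kinase of the same family, had 7.49, 7.12 and 4.87 RPKM with shHIF1A, against 3.30, 2.90 and 2.97 RPKM in control. It moved the other way, without overlap, and rose by 0.96 ± 0.16. In the citrate cycle 4 of 14 genes rose and 2 fell, a share called of 42.9%, near the 42.0% of all genes. SDHA, a subunit of succinate dehydrogenase, rose by 0.68 and cytosolic malate dehydrogenase MDH1 fell by 1.26. In glycogen metabolism, PGM1 fell by 0.89 and the glycogen phosphorylase PYGB rose by 0.79.

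The promoters of LDHA and PGK1 are shown because both hold the letters of the HIF-1 core and the genes moved in opposite directions. Capitals mark ACGTG on either strand; the palindrome CACGTG counts as 2 overlapping matches. The windows run from 250 bases before to 50 after the RefSeq start (GRCh38.p14), LDHA at chr11:18394313-18394612, plus strand and PGK1 at chrX:78103998-78104297, plus strand:
LDHA: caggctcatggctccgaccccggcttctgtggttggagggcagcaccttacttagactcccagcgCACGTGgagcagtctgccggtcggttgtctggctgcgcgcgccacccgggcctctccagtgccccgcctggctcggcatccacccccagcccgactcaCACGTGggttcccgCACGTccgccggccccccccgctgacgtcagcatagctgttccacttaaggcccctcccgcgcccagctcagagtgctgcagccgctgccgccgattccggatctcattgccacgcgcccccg
PGK1: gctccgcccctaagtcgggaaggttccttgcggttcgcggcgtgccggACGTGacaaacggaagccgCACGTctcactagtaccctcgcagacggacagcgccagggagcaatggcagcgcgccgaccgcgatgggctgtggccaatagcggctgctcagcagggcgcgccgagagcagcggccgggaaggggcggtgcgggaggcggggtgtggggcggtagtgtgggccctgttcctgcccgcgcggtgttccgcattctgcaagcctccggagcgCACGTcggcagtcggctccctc

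LDHA had 5 matches, from position -185 to -73, and PGK1 had 3, at -202, -183 and 29. ACGTG was found in 27.4% of the 9875 tested genes with a RefSeq promoter. Among glycolysis genes it was found in 8 of 18. Among hypoxia targets it was found in 11 of 16 that fell, in 1 of 7 that rose and in 5 of 10 that were not called. PDK1 and CA12 had no match in this window. Only the letters ACGTG were searched, so other forms of the site are not counted. A match is a description of the sequence and says nothing about binding.

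**Figure D3:**
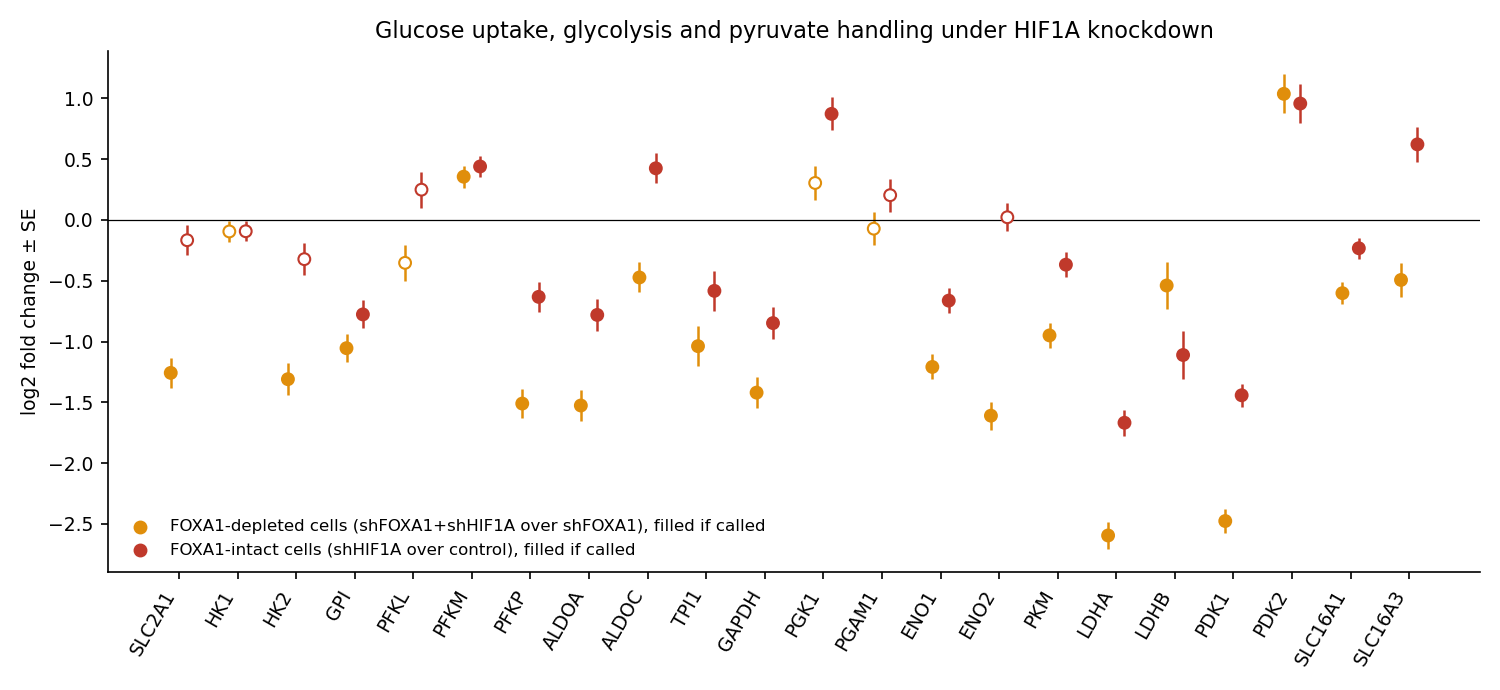
Log2 fold change ± SE under the HIF1A shRNA for genes of glucose uptake, glycolysis and pyruvate handling, in FOXA1-depleted cells (orange, left of each pair) and FOXA1-intact cells (red, right); filled points had an adjusted p below 0.05. LDHA and PDK1 were the lowest in both backgrounds, PDK2 was above 0 in both, and PGK1 was called higher in FOXA1-intact cells, while its value in FOXA1-depleted cells did not pass, and the difference of -0.57 ± 0.19 was not called (adjusted p = 0.0905, limma).

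Across 39 tested hypoxia targets, some shared with the glycolysis list, 19 fell, 7 rose and 13 were not called, and the median was -0.28. The falls spanned several roles. BNIP3, a receptor that starts the removal of mitochondria, had 63.3, 61.0 and 55.6 RPKM with shHIF1A, against 128, 94.7 and 82.7 RPKM in control. The groups did not overlap and BNIP3 fell by 0.74 ± 0.15. PLOD2, a lysyl hydroxylase of collagen, had 0.430, 0.690 and 0.554 RPKM with shHIF1A, against 2.10, 1.87 and 2.20 RPKM in control. It fell by 1.28 ± 0.18, and the prolyl hydroxylase P4HA1 fell by 0.74 ± 0.16. BHLHE40, a repressor of the circadian network, fell by 1.17, ZNF395 by 1.12, ANKRD37 by 1.11, the mTOR inhibitor DDIT4 by 0.95, the adenylate kinase AK4 by 0.99, PFKFB4 by 0.71, the ER oxidase ERO1A by 0.70 and NDRG1 by 0.65. Other members rose. CA12, a membrane carbonic anhydrase that exports acid, had 31.5, 35.6 and 28.7 RPKM with shHIF1A, against 7.42, 9.29 and 9.49 RPKM in control. No library overlapped, and CA12 rose by 1.82 ± 0.13 (adjusted p = 2.26e-08). TGFA, a ligand of the EGF receptor, rose by 1.38 ± 0.12 and P4HA2 rose by 1.15 ± 0.13. VEGFA, the main vessel growth factor, had 28.4, 29.1 and 20.8 RPKM with shHIF1A, against 26.6, 31.1 and 24.8 RPKM in control. These values overlapped, with a difference of -0.082 ± 0.14 (adjusted p = 0.670). CA9, EPO and ANGPTL4 did not reach the level needed for the test. Of 12 tested angiogenic factors 3 rose and 3 fell, a share called of 50%, near the 42.0% of all genes. The vasoconstrictor gene EDN1 rose by 1.57 and NRP1, a co-receptor, by 0.90, while THBS1, an inhibitor of vessel growth, fell by 0.74.

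All 51 tested genes of mitosis and the spindle fell, 44 of them at least 2-fold, and their median was -1.49. CDC20, the activator of the anaphase-promoting complex, had 4.22, 3.92 and 2.62 RPKM with shHIF1A, against 17.6, 17 and 12.8 RPKM in control. The groups lay apart, and CDC20 fell by 2.0 ± 0.18. PLK1, a kinase that drives entry into mitosis, had 2.83, 3.54 and 2.37 RPKM with shHIF1A, against 11.4, 12.2 and 10.8 RPKM in control. It fell by 1.82 ± 0.20 without overlap. The spindle protein NUSAP1 fell by 2.07, HMMR by 2.06, the kinetochore gene NDC80 by 1.93, the kinase MELK by 1.96, topoisomerase TOP2A by 1.77, the proliferation antigen MKI67 by 1.47 and the regulator FOXM1 by 1.42. The smallest fall was that of the phosphatase CDC25B, at 0.43. The 51 genes are shared targets of the cell cycle and are not independent of each other.

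Of 51 replication and S phase genes, 37 fell and 3 rose, with a median of -0.77. RRM2, which makes deoxyribonucleotides, had 3.72, 4.82 and 2.72 RPKM with shHIF1A, against 20.5, 19.3 and 19.2 RPKM in control. The groups did not overlap. The ubiquitin ligase adaptor DTL fell by 1.89, the replication factors MCM10 and CDC45 by 1.74 and 1.70, CDC6 by 1.66, the dUTPase DUT by 1.57 and E2F1 by 1.41. The G1 cyclins moved apart: CCND1 rose by 1.19 ± 0.090 and CCNE1 rose by 0.81 ± 0.15, while CCNE2 fell by 1.23 ± 0.15. In homologous recombination and mismatch repair all 18 tested genes fell, among them RAD51AP1 by 1.59, the nuclease EXO1 by 1.58, BARD1 by 1.46 and BRCA1 by 1.23. Of 13 other repair genes 5 fell and XRCC1, a scaffold of single-strand break repair, rose by 0.72 ± 0.12.

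Promoters of CCNB2 and PLK1 are shown as examples of a shared feature: many genes of late cell cycle carry the element TTTGAA, called CHR, with a CCAAT box upstream. Capitals mark TTTGAA on either strand (RefSeq, GRCh38.p14; CCNB2 at chr15:59104896-59105195, plus strand, PLK1 at chr16:23678639-23678938, plus strand):
CCNB2: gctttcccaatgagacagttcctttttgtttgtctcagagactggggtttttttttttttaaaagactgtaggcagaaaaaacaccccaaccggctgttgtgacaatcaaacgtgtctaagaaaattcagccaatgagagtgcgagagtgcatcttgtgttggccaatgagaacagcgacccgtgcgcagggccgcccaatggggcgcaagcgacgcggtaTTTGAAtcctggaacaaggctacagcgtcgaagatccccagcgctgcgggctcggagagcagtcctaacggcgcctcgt
PLK1: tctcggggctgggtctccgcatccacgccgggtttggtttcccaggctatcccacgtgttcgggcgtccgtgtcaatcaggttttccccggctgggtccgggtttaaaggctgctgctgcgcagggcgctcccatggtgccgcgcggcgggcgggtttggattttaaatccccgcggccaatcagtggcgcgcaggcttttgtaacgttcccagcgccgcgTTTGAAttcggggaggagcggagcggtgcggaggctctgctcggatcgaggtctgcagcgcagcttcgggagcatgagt

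In both promoters the element lies at position -29. TTTGAA was found in 29 of 43 mitosis genes with a promoter (67.4%), against 9.32% of all genes tested, and CCAAT on either strand in 33 of 43, against 37.6% of all. KIF2C, which fell by 1.67, had no TTTGAA in its window.

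CDKN1A, which encodes the CDK inhibitor p21, had 957, 908 and 817 RPKM with shHIF1A, against 236, 208 and 188 RPKM in control (chromosome 6, 36676460 to 36687339, plus strand). Every shHIF1A library was above every control library by several fold, and CDKN1A rose by 2.09 ± 0.11 (adjusted p = 1.54e-09). CDKN2B, the inhibitor of CDK4 and CDK6, had 5.63, 4.90 and 5.11 RPKM with shHIF1A, against 0.729, 1.54 and 1.19 RPKM in control. It rose by 1.82 ± 0.15, and CDKN1B rose by 0.51 ± 0.13. CDKN1A is also a target of p53, and of 36 tested p53 targets 20 rose and 2 fell, with a median of 0.58. SPATA18 rose by 1.39, TP53I3 by 1.38, PHLDA3 by 1.32, BTG2 by 1.25, RRM2B by 1.16, FDXR by 1.05, XPC by 0.88, DDB2 by 0.78 and SESN1 by 0.79. CCNG1 was one of the pair that fell, by 1.08. MDM2, a ubiquitin ligase of this list, stood at -0.019 ± 0.092. Of 14 BCL2 family genes 6 rose and 1 fell, a share called of 50%, near the 42.0% of all genes. Median-ratio scaling gave 4 rises and 2 falls. The rises were also 4 with only the groups compared in the fit or without shHIF1A library 2. BAK1 rose by 0.77, MCL1 by 0.71 and BID by 0.63. LMNB1 and HMGB2, which fall in senescent cells, fell by 2.30 and 1.74. The 16 tested CDK inhibitors and senescence-linked genes were mixed: 6 rose, 5 fell and 5 were not called, with a median of 0.18.

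Of 35 tested androgen receptor targets, 20 fell and 4 rose (2 without shHIF1A library 1), and the median was -0.64. KLK3, which encodes prostate-specific antigen, had 421, 371 and 334 RPKM with shHIF1A, against 958, 769.9 and 711 RPKM in control. The highest shHIF1A value was well below the lowest control value, and KLK3 fell by 1.11 ± 0.13 (adjusted p = 6.13e-06). TMPRSS2, a membrane serine protease, had 53.9, 58.1 and 50.1 RPKM with shHIF1A, against 264, 265 and 241 RPKM in control. Its groups did not overlap, and it fell by 2.24 ± 0.088 (adjusted p = 7.90e-11). KLK4 fell by 1.58, KLK2 by 0.81, the transcription factor MAF by 1.80, sorbitol dehydrogenase SORD by 1.33, the receptor chaperone FKBP5 by 1.18 and the folate hydrolase FOLH1 (PSMA) by 1.05. CAMKK2 rose by 0.81 ± 0.10 and the androgen-inactivating enzyme UGT2B15, whose reads may be shared with near-identical UGT2B genes, rose by 0.82 ± 0.15. Among prostate transcription factors HOXB13 fell by 0.48 ± 0.090 and NCOR1, a corepressor, fell by 0.52 ± 0.098.

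Markers of the basal layer and of cell adhesion shifted in part. The hemidesmosome integrin ITGB4 had 4.37, 4.75 and 3.94 RPKM with shHIF1A, against 0.507, 1.11 and 0.973 RPKM in control. It rose by 1.86 ± 0.17 without overlap. LAMB3, a laminin-332 chain, rose by 1.72, KRT15 by 1.83 and COL17A1 by 1.39, while KRT5 and TP63 did not reach the level tested. Of 12 basal or squamous genes tested 6 rose and 1 fell. Of 15 luminal genes 4 rose and 7 fell, and over both lists the 8 falls were 5 without shHIF1A library 3. There were rises of CLDN4 by 0.79 and CDH1, the epithelial cadherin, by 0.44, falls of ESRP1, a splicing factor of epithelia, by 0.68 and CLDN7 by 0.69, and no call for KRT8 (0.25), which passed without control library 1 (adjusted p = 0.0258). VIM, the intermediate filament of mesenchymal cells, had 7.54, 7.09 and 5.53 RPKM with shHIF1A, against 3.09, 2.22 and 1.68 RPKM in control. It rose by 1.37 ± 0.18. Fibroblast collagens moved with it, COL6A1 by 1.40 and COL1A1 by 1.45 upward, beside the higher sum of fibroblast markers given above, whose defining members DCN, COL1A2 and PDGFRA were at 0.0448 RPKM or less in every shHIF1A library. The part of other cell types in this result was not tested.

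Of 15 tested metalloproteinase genes and inhibitors, 5 of 11 enzymes and 2 of 4 inhibitors rose, a share near the 42.0% of all genes, and none fell, or 1 without control library 1 or control library 3. Quantile normalisation or the replicate block also gave 1 fall, and median-ratio scaling gave 2. MMP13 had 7.24, 7.47 and 8.11 RPKM with shHIF1A, against 0.550, 0.571 and 0.856 RPKM in control. MMP11 had 5.95, 5.98 and 4.97 RPKM with shHIF1A, against 1.40, 1.13 and 1.31 RPKM in control. For both genes all shHIF1A values lay above all control values, and they rose by 2.81 and 1.79. TIMP2, which inhibits several of these enzymes, had 38.3, 40.4 and 36.3 RPKM with shHIF1A, against 8.55, 7.58 and 8.22 RPKM in control. It rose by 2.17 ± 0.11 (adjusted p = 9.13e-10), and TIMP1 rose by 1.46 ± 0.36. MMP7 (-0.50 ± 0.23) and MMP12 (0.34 ± 0.24) were not called, but MMP7 fell without control library 3 (adjusted p = 0.0373). MMP7 also fell with median-ratio scaling (adjusted p = 0.0472, limma), and MMP12 rose after removal of length and GC trends (adjusted p = 0.0293). MMP1, MMP10 and MMP13 lie in one cluster with the apoptosis inhibitors BIRC3 and BIRC2 (chromosome 11, 102317450 to 102955734, hg38, GENCODE 29). Its ends were set by the risen genes BIRC3 and MMP13, and it holds 12 protein-coding genes, of which 8 were tested and 5 rose. That count follows in part from the choice of window and is not comparable with the 25.9% of all genes that rose. BIRC3, an ubiquitin ligase induced by NF-kB, had 24.2, 25.7 and 27.0 RPKM with shHIF1A, against 5.79, 5.12 and 5.57 RPKM in control. It rose by 2.12 ± 0.093 (adjusted p = 1.70e-10) and BIRC2 rose by 0.81 ± 0.10. TMEM123 between them and the proteases was at 50.1, 53.7 and 48.2 RPKM with shHIF1A, against 43.7, 45.8 and 47.6 RPKM in control and was not called, nor were MMP7 and MMP12. After removal of length and GC trends TMEM123 rose by 0.32 (adjusted p = 0.00466, limma).

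The MMP10 promoter is shown because metalloproteinase promoters are textbook targets of AP-1, whose element TGANTCA is in capitals (RefSeq, GRCh38.p14, chr11:102780579-102780878, minus strand):
MMP10: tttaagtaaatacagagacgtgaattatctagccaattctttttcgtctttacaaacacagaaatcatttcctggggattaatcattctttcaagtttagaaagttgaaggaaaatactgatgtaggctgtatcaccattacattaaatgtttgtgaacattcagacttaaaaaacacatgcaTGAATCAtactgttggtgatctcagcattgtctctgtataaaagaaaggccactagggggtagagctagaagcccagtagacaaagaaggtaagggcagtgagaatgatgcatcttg

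The match lies at position -67. TGANTCA, searched on both strands, was found in 4.27% of all promoters and in 2 of 9 of this list. Among 15 tested AP-1 and immediate early genes 7 rose and 1 fell, but 4 rose without control library 3, shHIF1A library 1 or shHIF1A library 3. FOSL2, an AP-1 subunit, rose by 1.40 ± 0.14, JUN rose by 1.21 ± 0.12 and KLF4 rose by 1.46 ± 0.11.

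Secreted defence proteins of epithelia were raised. Of 13 tested, 10 rose and none fell, and the median was 1.61. LCN2, which binds bacterial siderophores, had 23.0, 21.7 and 17.6 RPKM with shHIF1A, against 4.92, 4.31 and 4.72 RPKM in control. SLPI, a protease inhibitor encoded close to PI3 on chromosome 20, had 27.9, 23.3 and 30.6 RPKM with shHIF1A, against 10.3, 5.79 and 6.34 RPKM in control. SERPINA3, an acute-phase protease inhibitor, had 9.97, 11.1 and 7.78 RPKM with shHIF1A, against 1.66, 1.19 and 2.87 RPKM in control. None of these 3 genes had overlapping groups, and they rose by 2.04, 1.83 and 2.12. SCGB2A1 rose by 1.61 and SAA1 by 1.01. Of 12 S100 genes 3 rose and none fell (25% called, below the 42.0% of all genes), with S100A16 at 1.58. Of 13 chemokines and cytokines 8 rose and 1 fell. CXCL10, which draws T cells, had 7.72, 6.26 and 8.14 RPKM with shHIF1A, against 1.45, 0.994 and 1.51 RPKM in control. It rose by 2.12 ± 0.29 without overlap. CXCL8, which draws neutrophils, rose by 1.39, CCL5 by 1.53, CCL20 by 1.14 and the IL-6 family cytokine LIF by 1.00, while the receptor antagonist IL1RN fell by 1.51 ± 0.15. CCL2 stood at -0.11 ± 0.28. Of 16 genes of the NF-kB system 6 rose and none fell, a share called of 37.5%, below the 42.0% of all genes. BIRC3, BIRC2, NFKBIZ at 1.03 and TNFAIP2 at 0.98 were among those that rose. The subunits NFKB1 (0.18) and RELA (0.22) were not called.

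Of 26 tested interferon response genes 13 rose and none fell, with 10 of the rises at least 2-fold and a median of 0.51. IFIT1, which binds viral RNA that lacks a normal cap, had 5.02, 4.68 and 3.83 RPKM with shHIF1A, against 0.782, 0.365 and 0.390 RPKM in control. IFIT3 had 4.24, 5.33 and 4.87 RPKM with shHIF1A, against 0.620, 0.578 and 0.410 RPKM in control. IFI6 had 65.8, 49.4 and 46.7 RPKM with shHIF1A, against 13.3, 12.8 and 8.91 RPKM in control. No library overlapped in these genes, and they rose by 2.32, 2.36 and 2.16. OASL rose by 2.43, IFIT2 by 2.23, IFI27 by 2.04, RSAD2 by 1.87, IRF9, the DNA-binding subunit that answers type I interferon, by 1.33 and the RNA sensor DDX58 by 0.99. Other textbook members were not called: MX1 (-0.47 ± 0.20) and IFIT5 (0.21 ± 0.26). MX1 fell with an added constant of 0.1 (adjusted p = 0.0461), without the filter (0.0446), after quantile normalisation (0.0292) and after trend removal (0.0218), and in these settings 1 gene of the list fell. IFIT2, IFIT3 and IFIT1 lie within the span annotated for LIPA (lysosomal acid lipase) on chromosome 10, on the opposite strand. LIPA had 6.15, 9.06 and 7.49 RPKM with shHIF1A, against 12.5, 10.9 and 11.2 RPKM in control and fell by 0.60. Whether the counting used strand is not given, so reads of overlapping genes may not be separated. In antigen presentation 5 of 11 genes rose and none fell, a share called of 45.5%, near the 42.0% of all genes. Rises included the peptide transporter TAP1 at 1.07, its partner TAPBP at 1.05 and the regulator NLRC5 at 0.93.

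Promoters of IFIT1 and IFIT3 show the core of the interferon-stimulated response element in capitals, GAAA, then 2 bases of any kind, then GAAA, on either strand (RefSeq, GRCh38.p14; IFIT1 at chr10:89392373-89392672, plus strand, IFIT3 at chr10:89327747-89328046, plus strand):
IFIT1: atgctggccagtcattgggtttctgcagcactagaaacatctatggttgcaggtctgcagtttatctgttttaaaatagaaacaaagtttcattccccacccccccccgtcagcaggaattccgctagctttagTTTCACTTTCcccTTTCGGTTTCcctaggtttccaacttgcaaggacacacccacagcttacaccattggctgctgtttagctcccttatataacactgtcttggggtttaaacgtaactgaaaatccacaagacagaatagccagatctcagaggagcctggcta
IFIT3: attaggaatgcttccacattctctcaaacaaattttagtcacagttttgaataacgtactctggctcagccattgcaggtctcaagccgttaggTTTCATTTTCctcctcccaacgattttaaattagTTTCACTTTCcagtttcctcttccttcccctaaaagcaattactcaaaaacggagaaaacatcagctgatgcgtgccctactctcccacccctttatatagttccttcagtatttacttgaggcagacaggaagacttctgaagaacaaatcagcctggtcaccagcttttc

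Each holds 2 matches, IFIT1 at -116 and -103 and IFIT3 at -156 and -122. The core was found in 2.59% of all promoters, in 6 of 11 of the interferon genes that rose and in 8 of 9 of those not called. RSAD2 had no match in its window, and sequence outside that window was not searched.

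Among metal and redox genes, falls outnumbered rises. Of 16 metallothionein and metal-handling genes 9 fell and 4 rose, with a median of -0.52. MT2A, a metallothionein that binds zinc and copper, had 56.5, 32.4 and 36.8 RPKM with shHIF1A, against 129, 82.8 and 78.9 RPKM in control. MT1G had 3.69, 4.32 and 2.78 RPKM with shHIF1A, against 18.9, 12.6 and 17.2 RPKM in control. The groups did not overlap in either gene, and MT2A fell by 1.2 and MT1G by 2.03. Reads of metallothionein genes may be shared between near-identical copies. SLC40A1 (ferroportin, the iron exporter) rose by 1.66 ± 0.24, while FTH1, the ferritin heavy chain, fell by 1.3 ± 0.17. Of 25 NRF2-linked genes 10 fell and 1 rose (2 without control library 1, control library 2 or shHIF1A library 2). The share called, 44%, was near the 42.0% of all genes. TXNRD1, a thioredoxin reductase, had 67.6, 74.2 and 65.7 RPKM with shHIF1A, against 165, 185 and 178 RPKM in control. It fell by 1.34 ± 0.086, thioredoxin TXN fell by 1.05 and NQO1 by 0.74, while AKR1B10 rose by 2.11 ± 0.21. In the ATF4 and amino acid list 15 of 28 fell and 3 rose, led by asparagine synthetase ASNS at a fall of 1.23, the glycyl-tRNA synthetase GARS at 0.88 and the transporter SLC7A5 at 0.84.

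Ribosome-related genes fell, to an extent that rests on control library 1. Of 28 cytosolic ribosomal protein genes 23 fell and none rose, with a median of -0.57 (-0.37 without control library 1 and -0.23 after quantile normalisation); without control library 1 or shHIF1A library 3 the count was 10, without control library 1 and KC7F2 libraries 1 and 3 it was 11, and with only the groups compared in the fit 4. RPL27 had 915, 833 and 726 RPKM with shHIF1A, against 1869.7, 1518 and 1231 RPKM in control, with library 1 the highest control. Of 23 genes of MYC and ribosome biogenesis 13 fell and none rose: the nucleolar proteins LYAR by 1.63, NPM1 by 1.32, NOLC1 by 1.08 and FBL by 0.90. Of 26 proteasome subunits 2 fell, which became 0 without control library 1, shHIF1A library 1 or shHIF1A library 3 and 9 without control library 3. Of 33 nuclear-encoded respiratory chain subunits 6 fell and none rose, and without control library 1 none fell and 2 rose. Without shHIF1A library 2 the falls were 3 and without shHIF1A library 3 there was 1. These shares lie below the 42.0% of all genes. Of 32 lysosome and autophagy genes 14 rose and 4 fell. The autophagy factor WIPI1 had 36.7, 36.7 and 31.2 RPKM with shHIF1A, against 7.18, 11.3 and 10.1 RPKM in control. It rose by 1.84 ± 0.15, and cathepsin A (CTSA) rose by 1.17, TPP1 by 1.11 and ULK1 by 1.03. GPNMB, a lysosomal glycoprotein, had 1.11, 1.49 and 1.54 RPKM with shHIF1A, against 7.19, 5.65 and 6.31 RPKM in control. It fell by 1.87 ± 0.11.

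Several signalling genes of the NOTCH and ERBB families rose. JAG1, a NOTCH ligand, had 30.9, 32.3 and 34.4 RPKM with shHIF1A, against 6.25, 7.12 and 7.69 RPKM in control. All shHIF1A values exceeded all control values, and JAG1 rose by 2.14 ± 0.11 (adjusted p = 9.13e-10). Its receptors NOTCH3 and NOTCH1 rose by 1.14 and 0.87 and the target HES1 by 1.47, and in the list of WNT and NOTCH genes 11 of 18 rose and 1 fell, with a median of 0.58. Of 8 ERBB receptors and ligands of that family 3 rose and 1 fell, a share close to that of all genes. ERBB2 rose by 1.19 ± 0.10 and ERBB3 rose by 0.96 ± 0.090, while LRIG1, which promotes the degradation of ERBB receptors, fell by 1.36 ± 0.12. SYT4, a vesicle protein abundant in this line, had 145, 159 and 171 RPKM with shHIF1A, against 671, 617 and 652 RPKM in control. It fell by 2.03 ± 0.10. Genes of the RNA interference machinery, DICER1 and TNRC6A, rose by 0.73 and 0.92. In all 3 of 11 of that list rose, a share called of 27.3%, below the 42.0% of all genes.

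**Figure D4:**
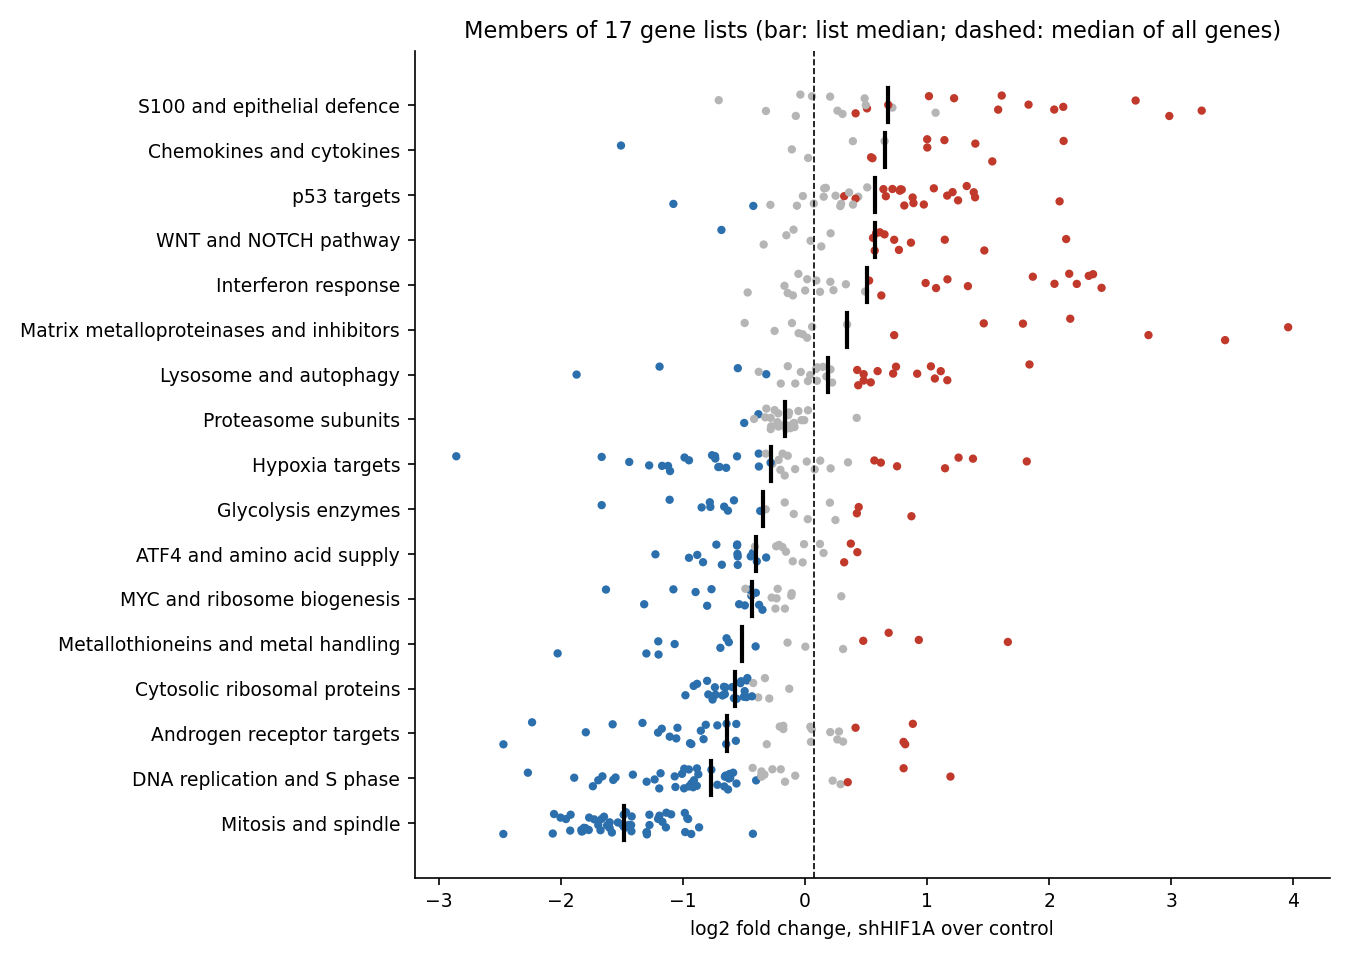
Log2 fold change (shHIF1A over control) of the tested members of 17 gene lists, 1 point per gene, red where the gene rose, blue where it fell and grey where it was not called; the bar is the list's median and the dashed line the median of all 12900 genes. Mitosis genes lie below 0 throughout, whereas the hypoxia, glycolysis and lysosome lists have called genes on both sides of 0.

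The HIF1A shRNA was also used on top of the FOXA1 shRNA, in 6 libraries that do not enter the comparison above. In FOXA1-depleted cells 3096 genes rose (24.0%) and 1745 fell (13.5%), 37.5% in all. The genes that rose in both backgrounds numbered 2081, which is 67.2% of those that rose in FOXA1-depleted and 62.2% of those that rose in FOXA1-intact cells. Genes that fell in both numbered 1090, or 62.5% and 52.5%. Of the 3347 genes that rose in FOXA1-intact cells 74 fell in FOXA1-depleted cells, and of the 2075 that fell 32 rose. The difference between the responses, FOXA1-depleted minus FOXA1-intact, was called for 982 genes (7.61%), 408 positive and 574 negative (3.16% and 4.45%). The positive count was 627 without control library 3 and 250 with only the groups compared in the fit. These groups also differ in that the single shHIF1A group alone lacked the high MIR30A signal, and that difference cannot be told apart from FOXA1.

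Hypoxia genes responded more in FOXA1-depleted cells. Of 39 targets 27 fell and 3 rose there, against 19 and 7 in FOXA1-intact cells, with medians of -1.01 and -0.28, and the difference was negative and called for 18. LDHA had 65.8, 57.7 and 50.4 RPKM with both shRNAs, against 361, 348 and 342 RPKM with the FOXA1 shRNA. Its change was -2.59 ± 0.11 in FOXA1-depleted and -1.67 ± 0.11 in FOXA1-intact cells (difference -0.93 ± 0.15, adjusted p = 0.00106). The levels reached were close and the starting levels were not: with the HIF1A shRNA LDHA averaged 58.0 ± 7.70 RPKM in FOXA1-depleted and 61.1 ± 7.0 RPKM in FOXA1-intact cells (here mean ± standard deviation). HIF1A followed the same course, at 4.33, 4.07 and 4.56 RPKM with both shRNAs, against 88.6, 81.6 and 99.5 RPKM with the FOXA1 shRNA. PDK1 changed by -2.48 ± 0.095 in FOXA1-depleted and -1.44 ± 0.095 in FOXA1-intact cells (difference -1.03 ± 0.13, adjusted p = 1.26e-04). SLC2A1, which was not called in FOXA1-intact cells, changed by -1.26 ± 0.12 in FOXA1-depleted and -0.17 ± 0.12 in FOXA1-intact cells (difference -1.09 ± 0.17, adjusted p = 7.40e-04), and HK2 by -1.31 ± 0.13 in FOXA1-depleted and -0.32 ± 0.13 in FOXA1-intact cells (difference -0.99 ± 0.18, adjusted p = 0.00298). ANGPT2 went the other way, at -1.23 ± 0.12 in FOXA1-depleted and -2.86 ± 0.12 in FOXA1-intact cells (difference 1.63 ± 0.17, adjusted p = 1.56e-05). CA12 rose in both, by 1.36 and 1.82, and its difference of -0.46 ± 0.18 was not called.

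Defence genes took opposite directions. Of 13 secreted defence genes 2 rose and 7 fell in FOXA1-depleted cells, against 10 and 0 in FOXA1-intact cells, and the difference was called and negative for 9. PI3 had 34.9, 34.5 and 42.4 RPKM with both shRNAs, against 98.2, 91.9 and 71.9 RPKM with the FOXA1 shRNA. It changed by -1.21 ± 0.21 in FOXA1-depleted and 3.25 ± 0.21 in FOXA1-intact cells (difference -4.46 ± 0.30, adjusted p = 1.91e-07). SERPINA3 changed by -1.83 ± 0.20 in FOXA1-depleted and 2.12 ± 0.20 in FOXA1-intact cells (difference -3.95 ± 0.29, adjusted p = 4.45e-07). LCN2 had a difference of -2.65 ± 0.26, and SLPI of -2.20 ± 0.35. SOD2, mitochondrial superoxide dismutase, fell by 1.22 ± 0.10 in FOXA1-depleted cells and rose by 0.82 ± 0.10 in FOXA1-intact cells. ENC1, an actin-linked protein, fell by 1.59 and rose by 1.06, and the calpain CAPN2 fell by 0.83 and rose by 0.90. WNT11 and KRT6B, both under 1 RPKM in the shHIF1A and control groups, fell by 3.99 and 4.41 in FOXA1-depleted cells. Of 13 chemokines 3 rose and 5 fell in FOXA1-depleted cells, and of 26 interferon genes 8 rose and 3 fell.

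In FOXA1-depleted cells 39 of 51 mitosis genes fell and none rose, with a median of -0.97. The difference was called for 12, positive for 11 and negative for 1. Of 51 replication genes 22 fell and 6 rose there, against 37 and 3 in FOXA1-intact cells, and of 31 repair genes 9 fell and 1 rose, against 23 and 1. CDC20 changed by -1.37 ± 0.18 in FOXA1-depleted and -2.0 ± 0.18 in FOXA1-intact cells. Of 36 p53 targets 24 rose and 4 fell in FOXA1-depleted cells, against 20 and 2 in FOXA1-intact cells, and CDKN1A changed by 1.69 ± 0.11 in FOXA1-depleted and 2.09 ± 0.11 in FOXA1-intact cells, with a difference of -0.39 ± 0.16 that did not pass. Of the androgen receptor targets 13 rose and 16 fell, against 4 and 20 in FOXA1-intact cells. The difference was called for 19 of 35, positive for 14 and negative for 5. ACPP had 4.26, 3.44 and 4.38 RPKM with both shRNAs, against 5.31, 4.46 and 4.71 RPKM with the FOXA1 shRNA. Those values were close, and its change was -0.24 ± 0.10 in FOXA1-depleted and -2.47 ± 0.10 in FOXA1-intact cells (difference 2.24 ± 0.15, adjusted p = 1.67e-07). TMPRSS2 changed by -1.74 ± 0.088 in FOXA1-depleted and -2.24 ± 0.088 in FOXA1-intact cells (difference 0.50 ± 0.12, adjusted p = 0.0210). MESP1 changed by -0.74 ± 0.37 in FOXA1-depleted and -3.0 ± 0.37 in FOXA1-intact cells (difference 2.26 ± 0.52, adjusted p = 0.0135).

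**Figure D5:**
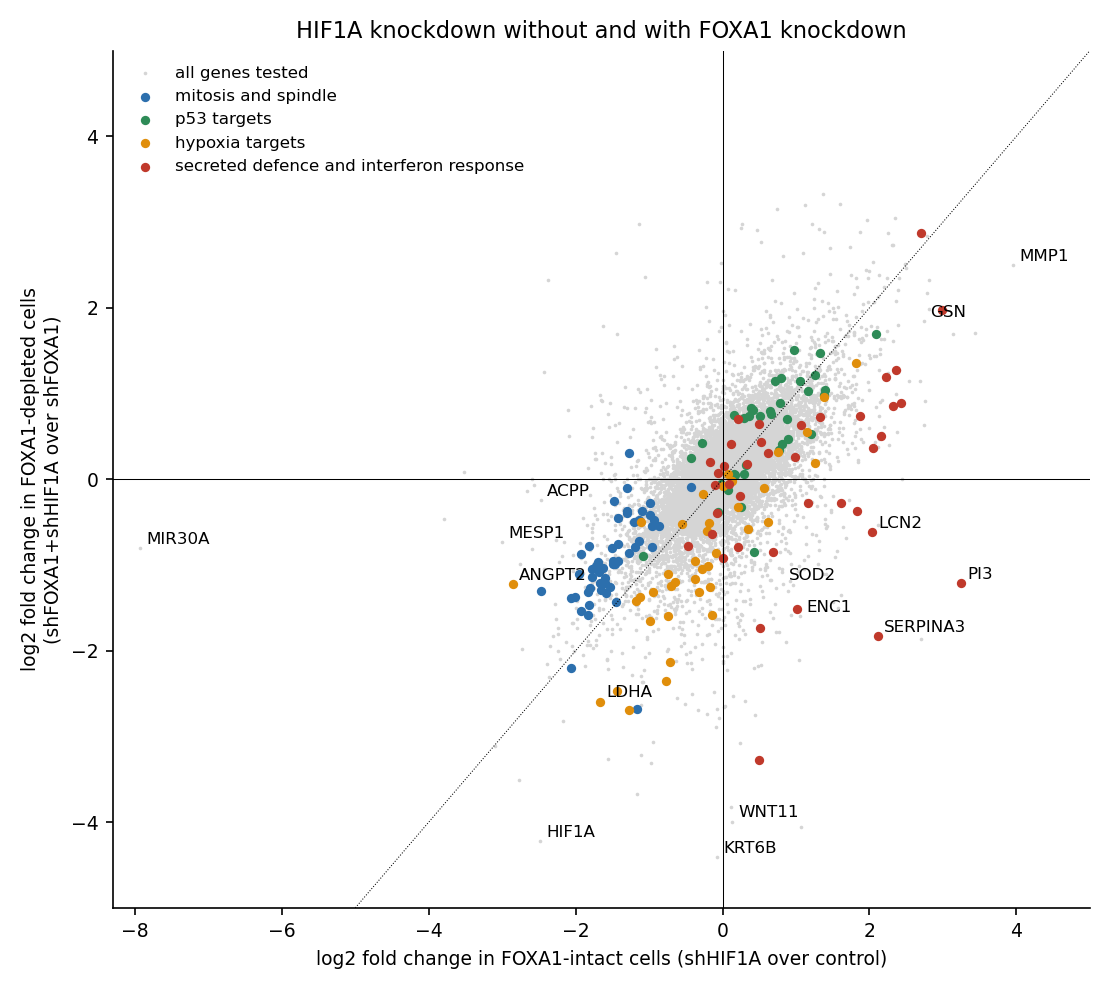
Log2 fold change under the HIF1A shRNA in FOXA1-depleted cells (vertical) against FOXA1-intact cells (horizontal) for all genes tested, with 4 sets coloured; the dotted line marks equal change and the 2 axes share no library. PI3, SERPINA3 and LCN2 lie in the lower right, mitosis genes in the lower left, and LDHA lies below the dotted line.

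shHIF1A was set directly against KC7F2 in pGIPZ cells, which shares no library with the shHIF1A group. The doses of an shRNA and an inhibitor have no common scale, and exposure was 5 days against 24 h. Between these groups 2972 genes were higher with shHIF1A (23.0%) and 2529 lower (19.6%), 42.6% in all. Without control library 1 and KC7F2 libraries 1 and 3, which had more signal in short genes, the counts were 1782 and 1320. The KC7F2 group was then a single library, assumed to vary like the other groups, which supply the spread. HIF1A transcript had 3.06, 4.28 and 3.33 RPKM with shHIF1A, against 15.1, 23.2 and 13.5 RPKM with KC7F2. KC7F2 is described as an inhibitor of HIF1A protein synthesis. LDHA had 63.7, 66.4 and 53.1 RPKM with shHIF1A, against 167, 157 and 171 RPKM with KC7F2, a difference of -1.43 ± 0.11. GPNMB had 1.11, 1.49 and 1.54 RPKM with shHIF1A, against 22.0, 22.6 and 23.0 RPKM with KC7F2, and the control level lay between them. TXNRD1 had 67.6, 74.2 and 65.7 RPKM with shHIF1A, against 254, 284 and 272 RPKM with KC7F2. Both genes were lower with shHIF1A, by 3.62 and 1.96. TNFRSF19, a receptor of the TNF family, had 18.7, 22.4 and 21.4 RPKM with shHIF1A, against 2.34, 2.10 and 2.03 RPKM with KC7F2, and CDC42EP3, a regulator of the actin skeleton, had 24.5, 25.6 and 24.9 RPKM, against 5.53, 5.49 and 5.18 RPKM with KC7F2. They were higher with shHIF1A by 3.0 and 2.11. In the mitosis list 49 of 51 genes were lower with shHIF1A than with KC7F2 and none were higher, and in the NRF2 list 21 of 25 were lower and 1 was higher.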

How the data were processed

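Per the labels' protocols, 0.5 µg of total RNA entered the NEBNext Ultra kit. Per the submitters' processing notes, reads were mapped with STAR to hg38; which program counted reads, with which annotation and strand setting, is not given in the sources used here. Deposited by the authors were RPKM values per gene for 18 libraries, 3 in each of 6 groups. Of 26475 lines, 32 held no value.

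From the deposited RPKM, log2(RPKM + 0.5) was fitted with limma 3.58.1 (R 4.3.3, moderated with a mean trend) in 1 model over 6 groups with 12 residual degrees of freedom, on the 12900 genes with at least 1 RPKM in 3 libraries. P-values were adjusted by Benjamini-Hochberg over these genes, and an adjusted p below 0.05 was called. The script was tested on simulated data. Positions are those of GENCODE 29 by symbol (12548 of the tested genes matched), and promoters those of RefSeq (9875 matched). Depth was recovered from the spacing of low values of short genes. Other settings changed the added constant, filter, scaling, groups in the model, replicate block, moderation, length and GC trends and left out libraries. Named genes are the largest changes by ratio and level, list members with the largest changes, small RNAs and the largest differences between contrasts. Genes and lists were chosen with earlier results of these data known.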

Additional observations from a re-analysis of the deposited data

Results flagged for a closer look

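The response to the HIF1A shRNA differed between FOXA1-depleted and FOXA1-intact cells for 93 of the 247 tested genes named in the text, by the interaction test (limma, adjusted p below 0.05), against 7.61% of all genes tested. Some of these genes were named because their interaction p was among the smallest, so the count is not comparable with that share. Each value below is the log2 change in FOXA1-depleted cells minus that in FOXA1-intact cells. Groups of 3 libraries were not searched for single outlying samples. For oxygen sensing, glucose metabolism and hypoxia genes the difference was -1.74 for HIF1A, 1.63 for ANGPT2, -1.42 for PFKFB4, -1.41 for PLOD2, -1.13 for EPAS1, -1.09 for SLC2A1 and -1.07 for CITED2. It was -1.04 for PYGB, -1.03 for PDK1, -0.99 for HK2, -0.93 for LDHA, -0.90 for ALDOC, -0.88 for PFKP and -0.86 for BNIP3. It was -0.78 for VEGFA, -0.74 for ALDOA, -0.67 for AK4, -0.55 for NDRG1, -0.55 for ENO1 and -0.54 for ERO1A. For secreted defence, cytokine and NF-kB genes the difference was -4.46 for PI3, -3.95 for SERPINA3, -2.65 for LCN2, -2.65 for CXCL10, -2.52 for SAA1, -2.20 for SLPI and -2.10 for NFKBIZ. It was -2.04 for SOD2, -1.89 for CCL20, -1.89 for SCGB2A1, -1.82 for CCL2, -1.69 for CXCL8, -1.65 for BIRC3 and -1.19 for TNFAIP2. It was -0.76 for BIRC2. For interferon and antigen presentation genes the difference was -1.85 for RAET1L, -1.68 for IFI27, -1.66 for IFI6, -1.54 for OASL, -1.47 for IFIT1, -1.13 for RSAD2 and -1.03 for IFIT2. It was -0.71 for TAPBP. For protease, matrix and adhesion genes the difference was -4.34 for KRT6B, -2.65 for ENC1, 1.96 for VIM, -1.96 for LAMB3, -1.86 for COL17A1, -1.74 for MMP10 and -1.73 for CAPN2. It was -1.46 for MMP1, -1.25 for TIMP2, -1.09 for VWF, -0.93 for MMP11, -0.89 for GSN and 0.52 for CDC42EP3. For androgen receptor target genes the difference was 2.24 for ACPP, 1.79 for UGT2B15, 1.18 for FOLH1, 0.65 for KLK4, -0.59 for FKBP5 and 0.50 for TMPRSS2. For cell cycle and repair genes the difference was 1.53 for BARD1, -1.26 for CDKN2B, 1.2 for CCNB2, 1.17 for STMN1, 1.17 for EXO1, 1.14 for CCNE2 and 1.05 for NDC80. It was 1.04 for PLK1, 0.69 for NUSAP1, 0.63 for TOP2A, 0.61 for CDKN1B and -0.48 for CCND1. For signalling and transcription factor genes the difference was -4.13 for WNT11, 2.26 for MESP1, -1.61 for TNFRSF19, 1.39 for GNB4, -1.23 for JAG1, -1.19 for FOSL2 and -1.11 for ID4. It was -0.94 for NOTCH1, -0.83 for KLF4 and 0.43 for RASSF3. For the remaining genes it was 7.13 for MIR30A, -1.63 for WIPI1, -1.55 for FAR2P2, -1.44 for C10orf10, -1.37 for HSPB8, -0.78 for TMEM123 and 0.70 for NQO1. It was 0.62 for GPNMB and -0.51 for QSOX1. The value for MMP1 depends on the constant added before the logarithm, because MMP1 was listed at 0 in control libraries. The single shHIF1A group was also the one with low MIR30A, and the part of that difference in these values was not tested.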

How the results depend on the processing

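Of the 247 tested genes named in the text 229 were called, and 224 of these kept their direction and call in each of 17 other settings where they were tested; the exceptions were ACTB, CD68, CDH1, GDF15 and RHOC. With 1 library left out, 2736 to 3212 genes rose and 1730 to 2309 fell, and the change of HIF1A lay between -2.81 and -2.32. With only the groups compared in the fit, the counts were lower than these ranges, at 2519 risen and 1502 fallen. In that fit HIF1A still passed, with a larger adjusted p (0.00147, limma). Against KC7F2, leaving out 1 library gave 2428 to 2881 genes higher and 1972 to 2538 lower, and setting aside control library 1 and KC7F2 libraries 1 and 3 (the short-gene libraries) gave 1782 and 1320, with 1 KC7F2 library whose spread is taken from the other groups. For the difference between backgrounds, leaving out 1 library gave 276 to 627 positive and 409 to 577 negative genes, and the positive count was 250 with only the groups compared in the fit. In FOXA1-depleted cells it gave 2391 to 2738 risen and 1481 to 1639 fallen genes. Genes that were not called changed sign as follows, and the cause was not tested. ARNT stood at -0.026 after quantile normalisation, -0.00052 after removal of length and GC trends and -0.12 without the short-gene libraries. KRT6B stood at 0.13 and MDM2 at 0.016 without these libraries. CCL2 stood at 0.27 after trend removal. With 1 library left out the change ran from -0.12 to 0.20 for ARNT, -0.46 to 0.15 for CCL2, -0.30 to 0.13 for KRT6B, -0.11 to 0.027 for MDM2 and -0.17 to 0.069 for VEGFA. The reported fit did not pair libraries by replicate number. Deviations of same-numbered shHIF1A and control libraries correlated at 0.215, 0.0464 and 0.191, and every library correlated best with its own number. The other pairs ran from -0.231 to 0.0330. Whether replicate numbers mark a shared batch was not tested. With the replicate block 3430 genes rose and 2131 fell. Genes of low level rest on few reads at these depths. The alternatives for FOXA1-depleted cells and for list counts were chosen after seeing the data.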

Other observations

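Of 24 tested genes of the TGF-beta and BMP pathway, 8 rose and 2 fell with shHIF1A, against 42.0% of all genes called in either direction. INHBB, which encodes a subunit of activin and inhibin, had 8.55, 7.32 and 5.69 RPKM with shHIF1A, against 1.37, 1.29 and 0.969 RPKM in control. The groups did not overlap, and INHBB rose by 2.16 (adjusted p = 1.96e-06, limma). The inhibitory SMAD7 rose by 0.84, and ID4, a helix-loop-helix inhibitor of transcription factors, rose by 1.57, while the BMP receptor BMPR1B fell by 0.80. IGF2R, which carries ligands and enzymes to lysosomes, had 92.5, 109.8 and 99.3 RPKM with shHIF1A, against 35.5, 52.2 and 46.7 RPKM in control. It rose by 1.17 without overlap, and the growth factor binding protein IGFBP3 fell by 0.50.

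Of 17 tested heat shock genes 4 rose, 2 fell and 11 were not called. The share called, 35.3%, was below the 42.0% of all genes. HSPB8, a small heat shock protein, had 12.7, 14 and 13.8 RPKM with shHIF1A, against 2.07, 2.37 and 2.23 RPKM in control. Its groups lay far apart and it rose by 2.37 (adjusted p = 1.12e-08, limma), whereas the mitochondrial chaperonin HSPD1 fell by 0.70. In cholesterol synthesis HMGCS1 had 29.8, 33.3 and 29.2 RPKM with shHIF1A, against 17.3, 15.4 and 15.6 RPKM in control and rose by 0.91, while the later enzymes CYP51A1 and MSMO1 fell by 0.61 and 0.68. In polyamine metabolism spermine synthase SMS had 17.3, 19.6 and 16.8 RPKM with shHIF1A, against 70.3, 51.9 and 41.2 RPKM in control. Every shHIF1A value lay below every control value, and SMS fell by 1.55 (adjusted p = 1.08e-06, limma).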
